A study of Mus musculus with 14 samples.

Results

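A pair of captured spermatid regions from Tsga8 knockout mice was compared. All genes were used whose RPKM (read count divided by gene length and library depth) was at least 1 in at least 2 of the 4 knockout libraries, which were 6528 of the 25965 genes in the table. The tissue came from testis sections by laser capture microdissection, in which chosen areas are cut out under a microscope. One region was of round spermatids at steps 4 to 8. The other, called the mixed region here, combined steps 1 to 3 (round) and 9 to 16 (elongated). There were, for each region, 2 libraries from knockout males (genotype Tsga8-/Y) and 2 from control males (Tsga8+/Y). The labels of the captured libraries give no treatment, strain or age, and those of whole testis call it adult. The knockout is of the whole animal as labelled, and the labels do not say which part of the gene was removed. Per the series text, 2 or 3 replicate animals were used, but nothing ties a captured region to an animal, so the p-values measure the spread between these libraries. The mixed region joins the youngest and the oldest spermatids, so a gene used at either end of spermiogenesis adds to the same value.

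Spermiogenesis is the part of sperm formation that follows meiosis. In early round spermatids transcription is active and the acrosome, the enzyme-filled cap used at fertilization, is built from Golgi vesicles. Later the nucleus elongates, histones are replaced by transition proteins and then by protamines, transcription stops, and proteins are made from messenger RNA stored earlier. The tail, with its outer dense fibres and fibrous sheath, is assembled during the same time. Tsga8 is an X-linked gene used in spermatids, and the series asks what it does for spermatid shaping and male fertility. The comparison between regions addresses how the expression programme differs between these spermatid ages when the gene is missing.

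Sets of promoter sequence are shown because results below turn on their genes: 3 genes of the meiotic divisions that stood higher in both mixed libraries, and 1 gene of the sperm head that stood lower. The windows are from RefSeq (GRCm38.p6), from 250 bases before to 50 bases after the start of the gene, and are written 5′ to 3′ on the strand of the gene. Capitals mark CCAAT, or ATTGG where it lies on the other strand, in the first 3, and TGACGTCA, the cyclic AMP response element, in the last. Ccna1 lies at chr3:55055006-55055305 (minus strand), Bub1 at chr2:127831810-127832109 (minus), Aurka at chr2:172370521-172370820 (minus) and Ccin at chr4:43983254-43983553 (plus).
Ccna1: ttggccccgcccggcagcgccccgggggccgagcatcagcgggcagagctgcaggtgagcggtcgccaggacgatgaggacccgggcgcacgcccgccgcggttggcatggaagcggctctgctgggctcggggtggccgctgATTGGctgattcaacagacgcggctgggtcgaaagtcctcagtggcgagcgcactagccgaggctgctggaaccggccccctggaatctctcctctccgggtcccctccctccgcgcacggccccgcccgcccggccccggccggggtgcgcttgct
Bub1: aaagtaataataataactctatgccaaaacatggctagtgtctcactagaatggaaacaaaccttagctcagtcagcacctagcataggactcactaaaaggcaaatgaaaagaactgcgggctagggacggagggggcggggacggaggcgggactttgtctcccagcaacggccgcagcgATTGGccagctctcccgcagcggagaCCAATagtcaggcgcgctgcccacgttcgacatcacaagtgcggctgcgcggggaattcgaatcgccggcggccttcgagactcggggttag
Aurka: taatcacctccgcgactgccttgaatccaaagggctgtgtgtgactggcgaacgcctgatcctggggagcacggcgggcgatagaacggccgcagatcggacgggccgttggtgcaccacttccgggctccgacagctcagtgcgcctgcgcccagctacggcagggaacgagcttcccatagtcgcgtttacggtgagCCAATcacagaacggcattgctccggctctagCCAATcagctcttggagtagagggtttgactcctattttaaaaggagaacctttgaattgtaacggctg
Ccin: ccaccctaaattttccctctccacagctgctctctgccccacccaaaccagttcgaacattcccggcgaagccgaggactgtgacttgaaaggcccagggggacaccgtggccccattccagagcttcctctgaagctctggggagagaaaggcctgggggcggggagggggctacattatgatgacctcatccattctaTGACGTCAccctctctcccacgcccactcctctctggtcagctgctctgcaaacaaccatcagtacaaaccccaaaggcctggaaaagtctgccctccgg

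The RPKM scale of the captured knockout libraries rested on 34770400 to 58676400 reads. Reads were found for 17413 and 18857 genes in the libraries of steps 4 to 8 and for 19219 and 20590 genes in the mixed libraries. Over all genes, the Spearman correlation of replicates was 0.831 in steps 4 to 8 and 0.827 in the mixed region, and pairs across regions lay between 0.767 and 0.850. Over the tested genes, replicates stood at 0.762 in steps 4 to 8 and 0.834 in the mixed region. Pairs across regions lay between 0.641 and 0.786 there. Libraries of different regions could thus be as alike as the replicates of steps 4 to 8. Over the tested genes no such pair reached the mixed replicates. Library 2 of the knockout mixed region stood apart. It had 176 genes with at least 100 reads there and at most 10 reads in each other library of the series, against 17 in the other knockout mixed library and 19 in each knockout library of steps 4 to 8. It shared 26 such genes with control mixed library 2 alone, 16 with control library 1 of steps 4 to 8 alone, and 12 with the other knockout mixed library alone. The part of this in any result was not tested, and values without this library are given where a result rests on it.

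Genes fixed for the spermatid label were looked up first. Whole testis libraries also had reads of all these genes, so their presence cannot tell captured spermatids from other testis tissue. Prm1, Prm2, Tnp1, Tnp2, Acrv1, Spaca1, Odf1, Akap4 and Crem all had reads in all 4 knockout libraries, from 8.79 RPKM for Spaca1 to 17200 RPKM for Prm2. Tsga8 itself (chromosome X, 83486678 to 83487924, mm10, minus strand) stood at 2.18 and 3.76 RPKM in knockout steps 4 to 8 and at 9.42 and 6.96 RPKM in the knockout mixed region, from 134, 163, 454 and 509 reads. The control libraries stood at 239 and 193 RPKM in steps 4 to 8 and at 56.9 and 209 RPKM in the mixed region, all above every knockout library. Between the knockout regions the 2 groups did not overlap, with a log2 difference of 1.23 ± 0.64 (SE; limma adjusted p = 0.472). That SE pools the spread within all captured groups, including the control mixed pair at 56.9 and 209 RPKM. In the fit on the 4 knockout libraries alone, the difference was 1.23 (limma adjusted p = 0.342).

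No gene passed the test between the knockout regions. With limma on log2(RPKM + 1) over all 8 captured libraries, 0 of 6528 genes (0%) had an adjusted p under 0.05, and the lowest adjusted p was 0.0961. At an unadjusted p under 0.05, 458 genes (7.02% of those tested) were higher in the mixed region and 339 (5.19%) were lower. In 1696 genes (26.0%) both mixed libraries lay above both libraries of steps 4 to 8, and in 1392 (21.3%) both lay below. These shares are the background for each gene group described here. The median size of a gene's log2 difference between regions was 0.49, while replicates differed by a median of 0.51 in steps 4 to 8 and 0.44 in the mixed region. The value for regions compares means of 2 libraries and those for replicates compare single libraries. Means vary less, so these sizes cannot be set against each other directly. The median signed difference was 0.099, and 55.7% of tested genes had a difference above 0. In 324 tested genes the RPKM reached 1 only in mixed libraries and in 270 only in libraries of steps 4 to 8. For those 594 genes the filter itself demanded a difference. Without knockout library 1 of steps 4 to 8, 410 genes had an unadjusted p under 0.05, and 477 and 440 had one without knockout mixed library 1 or 2, while the 797 became 1004 without library 2 of steps 4 to 8. In captured tissue, more cells of a type and more RNA per cell cannot be told apart.

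The 8 named genes with the smallest p among those higher in the mixed region were Rabggtb, Timp1, Vmn1r40, Trav9n-1, Fabp5, Krt4, Ssxb2 and Ssxb6. None passed the threshold, and all 8 reached 1 RPKM in mixed libraries only, so the filter had demanded this direction. Rabggtb, a subunit of the enzyme that attaches geranylgeranyl lipids to Rab proteins, stood at 0.00716 and 0.0962 RPKM in steps 4 to 8 and at 5.22 and 4.25 RPKM in the mixed region, a log2 difference of 2.44 ± 0.33 (limma adjusted p = 0.0961). Timp1, a secreted inhibitor of metalloproteases, stood at 0 and 0.189 RPKM in steps 4 to 8 and at 3.37 and 4.06 RPKM in the mixed region, from 0, 30, 595 and 1090 reads. Its log2 difference was 2.11 ± 0.30 (limma adjusted p = 0.0961). Both genes were near 0 in one region of the knockout and at moderate levels in both libraries of the other. Control libraries of both regions reached at most 0.587 RPKM for Rabggtb and 0.0419 RPKM for Timp1.

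Vmn1r40, a vomeronasal receptor gene, stood at 0.0436 and 0.709 RPKM in steps 4 to 8 and at 10.2 and 6.32 RPKM in the mixed region. Trav9n-1, a variable segment of the T cell receptor alpha locus, had 0 reads in both libraries of steps 4 to 8 and 136 and 111 reads in the mixed libraries. Krt4, a keratin of layered epithelia, had 0 and 3 reads in steps 4 to 8 and 611 and 586 reads in the mixed region. Trav9n-1 and Krt4 belong to the 12 genes that only the 2 knockout mixed libraries shared, and their control captured libraries held at most 0.0196 RPKM. Fabp5, a fatty acid carrier, stood at 0.0501 and 0.0425 RPKM against 3.49 and 2.71 RPKM. Its control mixed libraries were higher too, at 0.404 and 0.488 RPKM in steps 4 to 8 against 1.43 and 0.788 RPKM. The SSX family members Ssxb2 and Ssxb6 are near-copies on the X chromosome, and how reads were split among such copies is not given in the sources used here, so their values are uncertain. Ssxb6 stood at 0 and 0.0207 RPKM against 8.46 and 3.81 RPKM. Control mixed library 1 held it at 1.96 RPKM, and the other captured controls at most at 0.0475 RPKM. Without knockout mixed library 2, the log2 differences of the 8 genes were 1.82 to 3.23, and their limma adjusted p-values 0.314 to 0.606.

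The 8 named genes with the smallest p among those lower in the mixed region were Sertad4, Mos, Tmem81, Olfr181, Asb15, Csrnp1, Hist1h2bk and Fahd1, again with none past the threshold. Of these, 6 reached 1 RPKM in libraries of steps 4 to 8 only, the exceptions being Tmem81 and Hist1h2bk. Sertad4, a SERTA domain gene, stood at 5.74 and 3.66 RPKM in steps 4 to 8 and at 0.16 and 0.00452 RPKM in the mixed region (log2 difference -2.38 ± 0.41, limma adjusted p = 0.191). Mos, the kinase known for holding the egg at the second meiotic metaphase, stood at 6.14 and 7.66 RPKM against 0 and 0.0235 RPKM. In controls Mos stood at 4.33 and 0.323 RPKM in steps 4 to 8 and at 0 and 0.0281 RPKM in the mixed region. These groups did not overlap either, though the control level rested mainly on library 1 of steps 4 to 8. Tmem81, a membrane protein gene with immunoglobulin folds, stood at 36.9 and 16.4 RPKM against 0.978 and 1.66 RPKM, which was the largest size of log2 difference among the 16 named here (-3.49 ± 0.71).

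Asb15, an ankyrin repeat and SOCS box gene, stood at 2.87 and 2.72 RPKM in steps 4 to 8 and at 0.101 and 0.248 RPKM in the mixed region. Hist1h2bk, a replication-type histone H2B with near-identical copies, stood at 12.1 RPKM in both libraries of steps 4 to 8 and at 0.648 and 1.39 RPKM in the mixed region. Csrnp1, a nuclear protein gene, stood at 8.06 and 5.85 RPKM against 0.596 and 0.888 RPKM. For these 3 genes, Tmem81 and Mos, both control libraries of steps 4 to 8 also lay above both control mixed libraries. Fahd1, a mitochondrial enzyme gene, stood at 13.2 and 8.46 RPKM against 0.736 and 0.242 RPKM, and its control values, 0.918 and 6.05 against 11.8 and 3.23 RPKM, overlapped. Olfr181, an odorant receptor gene, stood at 9.40 and 2.11 RPKM against 0.00838 and 0.0717 RPKM, and at most at 0.121 RPKM in captured controls. Without knockout library 1 of steps 4 to 8 the limma adjusted p-values of the 8 genes were 0.576 to 0.739.

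**Figure D1:**
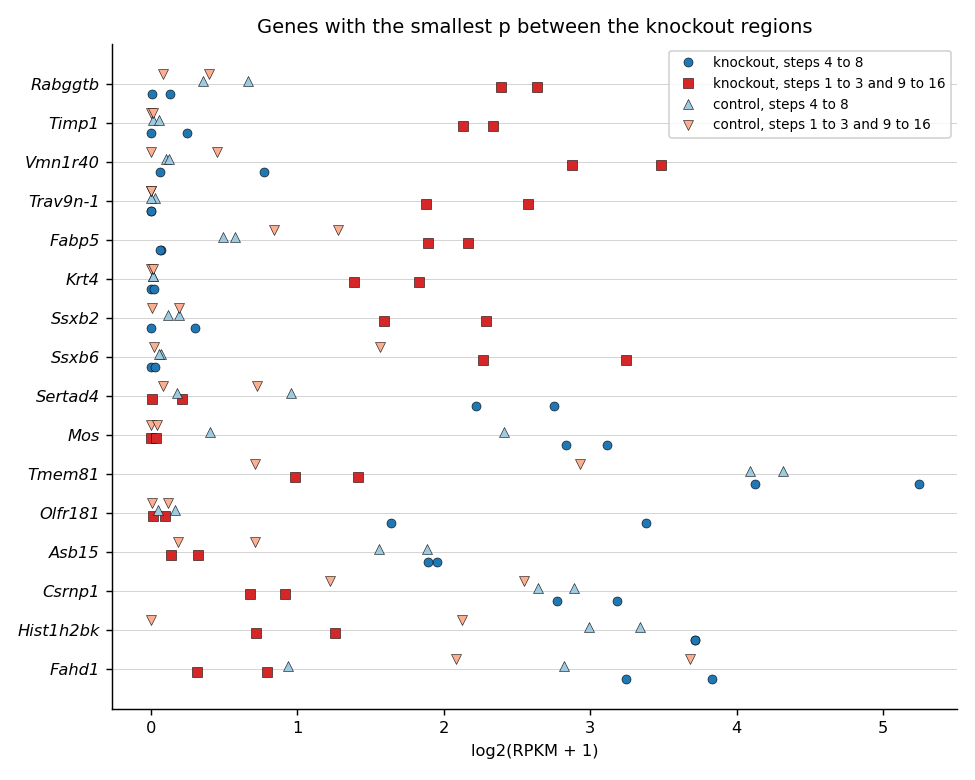
Level of the 16 genes with the smallest p between the knockout regions, as log2(RPKM + 1), in each of the 8 captured libraries (points; 2 per group). The 4 knockout libraries separate by region for every gene shown, while the controls stay near 0 for Timp1, Trav9n-1 and Krt4 and follow the knockouts for Tmem81 and Asb15.

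Genes of chromatin condensation had 20 tested members of 27 in the table. None passed the test, 8 stood apart as higher in the mixed region and 5 as lower, and their median log2 difference was 0.28, beside 0.099 for all tested genes. Prm1, the protamine that packs sperm DNA, stood at 218 and 1400 RPKM in steps 4 to 8 and at 7060 and 1840 RPKM in the mixed region, a log2 difference of 2.70 ± 1.07 (limma adjusted p = 0.383). The groups did not overlap, but the replicates of each region differed several fold. Prm2 stood at 7400 and 4740 RPKM against 17200 and 7470 RPKM, with the lower mixed library close to the higher library of steps 4 to 8. The transition protein gene Tnp1 stood at 540 and 1220 RPKM against 2670 and 955 RPKM, and Tnp2 at 109 and 1120 RPKM against 615 and 853 RPKM. Both overlapped between regions. Hils1, a linker histone variant of spermatids, overlapped too, at 542 and 1040 RPKM against 543 and 606 RPKM. Among knockouts, library 1 of the mixed region held the highest values of Prm1, Prm2 and Tnp1. Hist1h4c, 1 of many near-identical histone H4 genes and so uncertain, stood at 0.0515 and 1.53 RPKM against 5.70 and 4.40 RPKM. Chd5, a chromatin remodeller of spermatids, had the smallest p among the lower members, at 1.21 and 1.07 RPKM against 0.143 and 0.250 RPKM. The list median was 0.03 to 0.62 when single libraries were left out, with 0.62 reached without knockout mixed library 2.

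Acrosome genes stood lower in the mixed region in most cases. Of 35 tested members of 40, none passed the test, 20 (57.1%) stood apart as lower, beside 21.3% of all tested genes, and 5 stood apart as higher. The median log2 difference was -0.63, and between -0.75 and -0.47 in every alternative run. Acr, the acrosomal protease, stood at 20.3 and 19.7 RPKM in steps 4 to 8 and at 12.5 and 13.8 RPKM in the mixed region. Spaca1, an acrosomal membrane protein gene, stood at 32.8 and 30.5 RPKM against 17.2 and 8.79 RPKM, and Acrv1, of the acrosomal matrix, at 85.4 and 138 RPKM against 76.2 and 53.4 RPKM. Hyal5, a sperm hyaluronidase, had the smallest p of the lower members, at 17.7 and 17.1 RPKM against 8.72 and 4.65 RPKM (log2 difference -1.31 ± 0.48, limma adjusted p = 0.352). For all 4 genes both libraries of steps 4 to 8 lay above both mixed libraries. Prss21, a testis serine protease, went the other way, with 9.88 and 18 RPKM against 49.5 and 43.5 RPKM. In controls 18 of the 35 stood apart as lower, beside 22.3% of all tested genes, and the median was -0.92.

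Genes of sperm-egg binding and fusion gave a like count, with 27 tested of 30, 13 apart as lower, 5 apart as higher, none past the test and a median log2 difference of -0.27. Adam6a, a sperm surface gene of the ADAM family, stood at 16.9 and 37.3 RPKM in steps 4 to 8 and at 2.31 and 6.10 RPKM in the mixed region. Rnase10, a secreted ribonuclease-like gene, was at 0 and 0.00956 RPKM against 2.99 and 3.52 RPKM, and 1 of the 2 control mixed libraries held it as well, at 4.35 RPKM.

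Genes of head shaping, the perinuclear theca and the manchette had 37 tested members of 44. Of these, 15 (40.5%) stood apart as lower in the mixed region, 4 as higher, and none passed the test. The median log2 difference was -0.33. Ccin, which encodes calicin, a protein of the perinuclear theca, stood at 69.0 and 113 RPKM in steps 4 to 8 and at 6.06 and 36.9 RPKM in the mixed region (log2 difference -2.45 ± 1.04, limma adjusted p = 0.403). Its replicates in the mixed region differed more than those in steps 4 to 8. Cypt4, which encodes a basic theca protein, stood at 1350 and 2430 RPKM against 578 and 802 RPKM. The X-linked family members Cypt1 and Cypt3 stood at 251 and 406 against 296 and 257 RPKM, and at 112 and 73.5 against 71.7 and 45.5 RPKM. Cypt1 overlapped between regions and Cypt3 did not. Spem1, a gene needed in mice for shedding sperm cytoplasm, stood at 177 and 207 RPKM against 402 and 293 RPKM. Among tubulins, 3 of 11 tested members stood apart as higher and 1 as lower, and the median of 0.18 became -0.11 without knockout library 1 of steps 4 to 8 and -0.23 without knockout mixed library 2.

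Structural genes of the tail showed no common direction. Of 36 tested members of the outer dense fibre and sheath list of 37, 10 stood apart as higher and 13 as lower, with a median log2 difference of -0.18. Odf1, a main outer dense fibre protein, stood at 48.6 and 24.4 RPKM in steps 4 to 8 and at 15.3 and 10.7 RPKM in the mixed region. Smcp, of the mitochondrial capsule, stood at 340 and 229 RPKM against 150 and 91.4 RPKM. Odf4, another outer dense fibre gene, stood on the other side, at 10.5 and 20.9 RPKM against 48.5 and 65.4 RPKM (log2 difference 1.85 ± 0.55, limma adjusted p = 0.317). Akap4, the main fibrous sheath scaffold, overlapped, at 20.5 and 24.7 RPKM against 17.1 and 33.1 RPKM. Of 32 tested axoneme genes of 53, 10 stood apart as higher and 5 as lower. Sperm ion channels and transporters had 19 tested of 31, with 3 apart as higher. Another 9 (47.4%) stood apart as lower, beside 21.3% of all tested genes. Catsper1, a subunit of the sperm calcium channel, stood at 11.1 and 8.38 RPKM against 2.48 and 1.59 RPKM. The sperm glycolytic gene Gapdhs stood at 46.7 and 47.9 RPKM against 28.9 and 25.2 RPKM, and its list of energy genes had 7 apart as higher and 8 as lower of 29. Among testis kinases and phosphatases the split was 4 higher and 6 lower of 23, and Tssk6, a kinase needed in mice for histone replacement, overlapped at 124 and 98.8 RPKM against 94.7 and 125 RPKM.

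Regulators of spermatid transcription had 22 tested members of 37. Of these, 10 (45.5%) stood apart as lower in the mixed region, 4 as higher, none passed the test, and the median log2 difference was -0.41. In 3 of the 22 the RPKM reached 1 in one region only, and without those 3 the median was -0.10. Klf17, a zinc finger factor, stood at 9.28 and 9.81 RPKM in steps 4 to 8 and at 0.765 and 1.61 RPKM in the mixed region (log2 difference -2.30 ± 0.59, limma adjusted p = 0.280). Hsfy2, related to heat shock factors, stood at 349 and 435 RPKM against 90.6 and 54.0 RPKM, and the zinc finger gene Zfp37 at 24.7 and 23.9 RPKM against 4.50 and 7.40 RPKM. In each of these 3 the replicates lay closer to each other than to the other region. Tbpl1, a relative of the TATA-binding protein needed in mice for spermiogenesis, stood at 9.25 and 6.36 RPKM against 16.0 and 21.1 RPKM. Crem, a main activator of genes in round spermatids, was level across regions at 10.1 and 10.7 RPKM against 10.5 and 9.20 RPKM.

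The genes of stored messenger RNA and translation control had 7 members apart in each direction of 26 tested. Dazl, an RNA-binding protein of germ cells, stood at 0.983 and 3.52 RPKM in steps 4 to 8 and at 6.66 and 12.4 RPKM in the mixed region, while the Y-box protein gene Csda, which coats stored messenger RNA, stood at 36.4 and 25.9 RPKM against 14.3 and 10.8 RPKM. In the piRNA pathway, 7 of 12 tested members stood apart as lower and 2 as higher. Piwil1, the PIWI protein of round spermatids and pachytene cells, stood at 2.00 and 3.83 RPKM against 0.891 and 0.898 RPKM. Among genes of ubiquitin and cytoplasm removal, 10 of 22 stood apart as lower and 4 as higher. Klhl10, an adaptor of a ubiquitin ligase needed in mice for male fertility, stood at 45.6 and 39.5 RPKM against 16.1 and 21.0 RPKM.

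**Figure D2:**
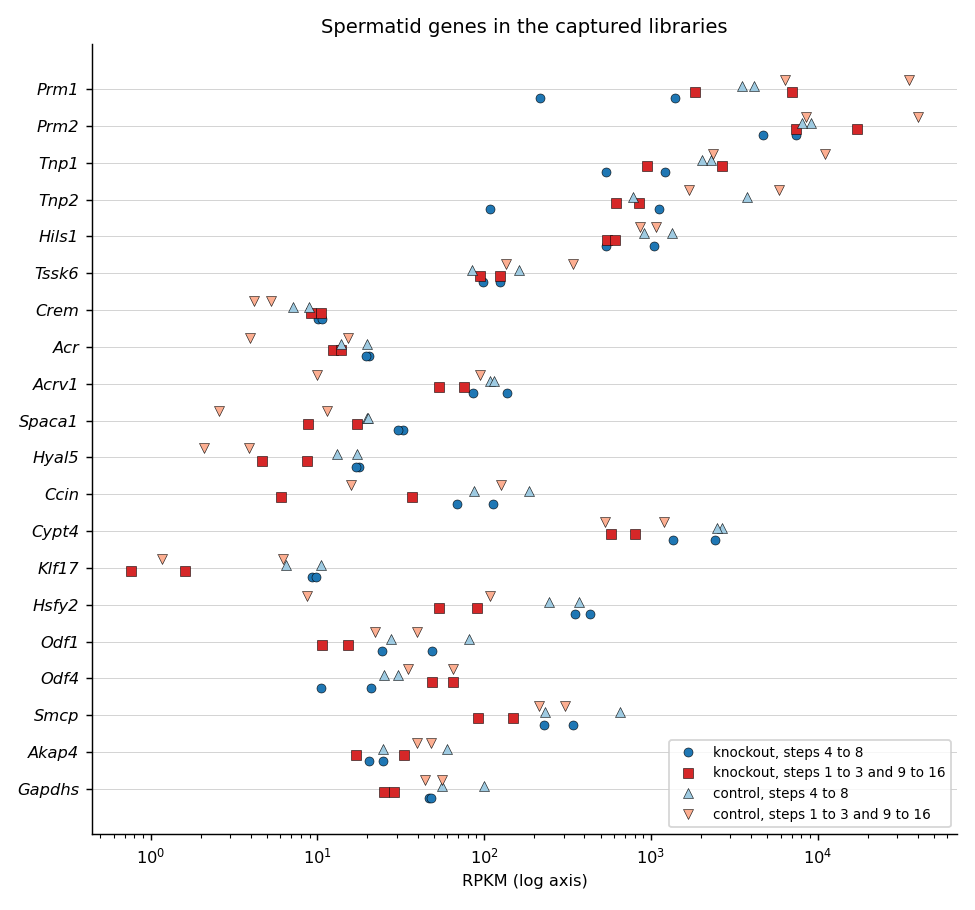
RPKM (log axis) of 20 spermatid genes in each captured library, with 2 points per group. Knockout values of Klf17, Hsfy2, Ccin and Hyal5 are lower in both mixed libraries than in both libraries of steps 4 to 8, those of Odf4 and Prm1 are higher, and those of Tnp1, Tnp2, Crem and Akap4 overlap.

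Genes of late spermatocytes and the meiotic divisions stood higher in the mixed region. Of 23 tested members of 26, 12 (52.2%) stood apart as higher, beside 26.0% of all tested genes, 3 stood apart as lower, and none passed the test. The median log2 difference was 0.38, and 0.28 to 0.49 under other scalings. Ccna1, the A-type cyclin of male meiosis whose promoter is printed above, stood at 4.76 and 5.23 RPKM in steps 4 to 8 and at 28.1 and 45.5 RPKM in the mixed region (log2 difference 2.62 ± 0.78, limma adjusted p = 0.317). Bub1, a kinase of the spindle checkpoint, stood at 1.65 and 1.90 RPKM against 8.5 and 8.91 RPKM (log2 difference 1.81 ± 0.39, limma adjusted p = 0.280). Aurka, a kinase of the spindle poles, stood at 1.90 and 3.66 RPKM against 13.6 and 11.7 RPKM. In all 3 the replicates lay closer to each other than the regions did. Captured controls held Bub1 at 1.31 and 1.35 RPKM in steps 4 to 8 and at 1.85 and 0.944 RPKM in the mixed region, where the groups overlapped. Ccna1 in controls was 5.61 and 5.04 RPKM against 35.1 and 4.31 RPKM, so 1 of the 2 control mixed libraries lay within the knockout range. Aurka in controls stood apart as higher, at 3.33 and 3.22 RPKM against 14.6 and 4.59 RPKM. In the whole list, 8 of 23 stood apart as higher in controls, beside 19.7% of all tested genes, and 2 as lower, with a control median of 0.32.

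The CCAAT letters were found on either strand in 15 of the 17 members of this list (88.2%) that had a RefSeq promoter under the same symbol. The share was 37.9% of all 27025 promoters of that length and 40.9% of the 4182 tested genes with one. The chromatin condensation list had 7 of 14 (50%) and the acrosome list 8 of 27 (29.6%). TGACGTCA was found in 3 of 31 promoters of the head shaping list (9.68%), Ccin among them, in 1.88% of all promoters and in 4.07% of those of tested genes. It was found in 0 of 14 chromatin condensation promoters and in 0 of 27 acrosome promoters, which allows nothing to be said of the factor. In all, 10 motifs were searched on both strands, and CCAAT and TGACGTCA were picked to be marked above after their counts were seen. Others also differed in share between the list of the meiotic divisions and all tested genes. GGCGGG was in 82.4% beside 54.0%, TTTGAA in 47.1% beside 13.9%, and TGACG in 23.5% beside 33.0%. A match describes the letters and is not a shown binding site.

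Markers of meiotic prophase had no such pattern. Of 14 tested, 2 stood apart as higher and 4 as lower, and their summed level was 101 and 112 RPKM in steps 4 to 8 and 92.2 and 121 RPKM in the mixed region. Sycp3, of the synaptonemal complex, stood at 6.96 and 15.7 RPKM against 18.2 and 30.1 RPKM, while Rec8, the meiotic cohesin, stood at 9.07 and 4.50 RPKM against 1.55 and 0.889 RPKM.

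Markers of the other cells of the testis were measured beside these results. Sertoli markers had 15 tested members of 30, with 7 apart as higher in the mixed region and 3 as lower, a median log2 difference of 0.42, and a summed level of 213 and 323 RPKM in steps 4 to 8 against 518 and 365 RPKM in the mixed region. Much of that sum came from the cystatins Cst9, at 56.0 and 148 against 244 and 166 RPKM, and Cst12. Another large part came from the defensin gene Defb19, which overlapped at 45.7 and 41.1 against 93.9 and 26.6 RPKM. Shbg, the androgen-binding protein gene, was at 0 and 0.0464 against 1.10 and 3.24 RPKM, and Dhh, a hedgehog ligand, at 0.148 and 1.93 against 2.29 and 5 RPKM. For both the mixed libraries were higher, and their limma adjusted p-values were 0.365 and 0.405. The 3 members apart as lower were Rhox5, Rhox8 and Amhr2. Rhox5 was at 4.45 and 9.71 against 3.79 and 3.38 RPKM, and Rhox8 at 2.62 and 3.6 against 1.54 and 1.62 RPKM. Amhr2 was at 5.15 and 4.2 against 3.11 and 2.28 RPKM. Sox9, the defining Sertoli factor, was at 0.132 and 0.660 against 0.0888 and 1.57 RPKM, and Clu, a main secreted Sertoli product, overlapped at 17.8 and 15.2 against 13.5 and 22.7 RPKM. The 18 Leydig markers summed to 13.1 and 44.3 RPKM in steps 4 to 8 and to 14.8 and 41.4 RPKM in the mixed region. Insl3, the Leydig hormone gene, was at 0.0746 and 20.7 RPKM against 1.94 and 21.4 RPKM, so it was high in library 2 of each region. Macrophage markers summed to 11.4 and 15.9 against 20.6 and 21.9 RPKM. Of 4 tested members, 1 stood apart as higher and 1 as lower. Apoe, a lipid carrier that macrophages secrete, was at 0.611 and 5.25 against 11.1 and 7.93 RPKM, higher in both mixed libraries. Fcer1g was lower in both, at 1.25 and 1.55 against 1.14 and 0.974 RPKM. C1qb overlapped at 5.25 and 1.2 against 1.78 and 1.94 RPKM, and Cd68 and Cd74 were at 0 in all 4 libraries. The 13 peritubular markers summed to 9.25 and 10.3 against 11.8 and 18.8 RPKM. Of the 2 tested, Myl9, a smooth muscle light chain gene, was at 1.09 and 0.687 against 5.79 and 8.88 RPKM. The other, Actg2, overlapped at 7.93 and 8.7 against 5.11 and 8.33 RPKM. Acta2 and Myh11 were at most 1.21 and 0.105 RPKM. The 12 endothelial markers summed to at most 2.51 RPKM and the 6 of red blood cells to at most 2.85 RPKM, and Esam was at 0 in all 4 libraries. Of 22 spermatogonial markers 2 were tested, Dmrtb1, which overlapped at 28.1 and 18.3 against 23.2 and 17.1 RPKM, and Id4, at 16.4 and 10 against 2.1 and 2.72 RPKM. Stra8, among those under the filter, was at most 0.00750 RPKM. The part of these cells in the differences between regions was not tested.

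Among groups of housekeeping genes, proteasome genes stood higher in the mixed region more often than the background, while ribosomal and oxidative phosphorylation genes were near or under it in that count. Proteasome genes had 35 tested members of 43, of which 21 (60.0%) stood apart as higher and 1 as lower, with a median log2 difference of 0.62 and a range of 0.44 to 0.76 over left-out libraries. Psma2, a subunit of its core, stood at 3.11 and 2.38 RPKM in steps 4 to 8 and at 11.1 and 10.2 RPKM in the mixed region (limma adjusted p = 0.280). Psme4, which encodes an activator used in histone removal, was the lower member with the smallest p, at 7.33 and 4.79 RPKM against 3.89 and 4.22 RPKM. Ribosomal protein genes had 80 tested of 83, with 23 (28.7%) apart as higher, none as lower and a median of 0.47. That median became -0.27 without knockout mixed library 1, in which their summed level was 6390 RPKM, beside 2270 RPKM in library 2 of the same region and 3010 and 2900 RPKM in steps 4 to 8. Oxidative phosphorylation genes gave 17 of 79 apart as higher (21.5%, beside 26.0% of all tested genes) and 3 as lower, with a median of 0.15 that became -0.18 without the same library. None of these genes passed the test. In controls, proteasome genes had 8 apart as higher and 4 as lower, with a median of 0.23. Ribosomal protein genes had 28 higher and 2 lower in controls, with a median of 0.48. For oxidative phosphorylation genes the control counts were 17 higher and 16 lower, with a median of 0.14. The control shares of all tested genes were 19.7% higher and 22.3% lower.

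Stress genes were mixed. Hspa5, the main chaperone of the endoplasmic reticulum, stood at 12.5 and 8.45 RPKM in steps 4 to 8 and at 26.2 and 84.3 RPKM in the mixed region. Hsp90b1, its partner chaperone, stood at 2.26 and 8.01 RPKM against 15.9 and 23.6 RPKM, and the disulfide isomerase gene Pdia6 at 0.614 and 1.59 RPKM against 3.23 and 7.42 RPKM. For all 3 the mixed libraries were higher, with library 2 the highest, but the list of the unfolded protein response had a median of -0.04 over 14 tested members, 6 apart as higher and 3 as lower, and 0.07 without that library. Heat shock genes had 6 apart in each direction of 16. Hspb1, a small heat shock protein gene, was at 0 and 4.81 RPKM against 7.27 and 7.61 RPKM, and Hsf2, a heat shock factor, at 7.23 and 5.94 RPKM against 2.76 and 2.82 RPKM. Among immediate early genes, where 4 of 21 were tested, 1 stood apart as higher and 2 as lower. Dusp1, a phosphatase gene, stood at 4.99 and 4.57 RPKM against 1.48 and 0.995 RPKM, and Arc, a neuronal immediate early gene, at 8.65 and 7.72 RPKM against 16.5 and 16.0 RPKM. All 13 genes encoded by mitochondria had 0 reads in every captured library, so nothing can be said of their level from these values.

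**Figure D3:**
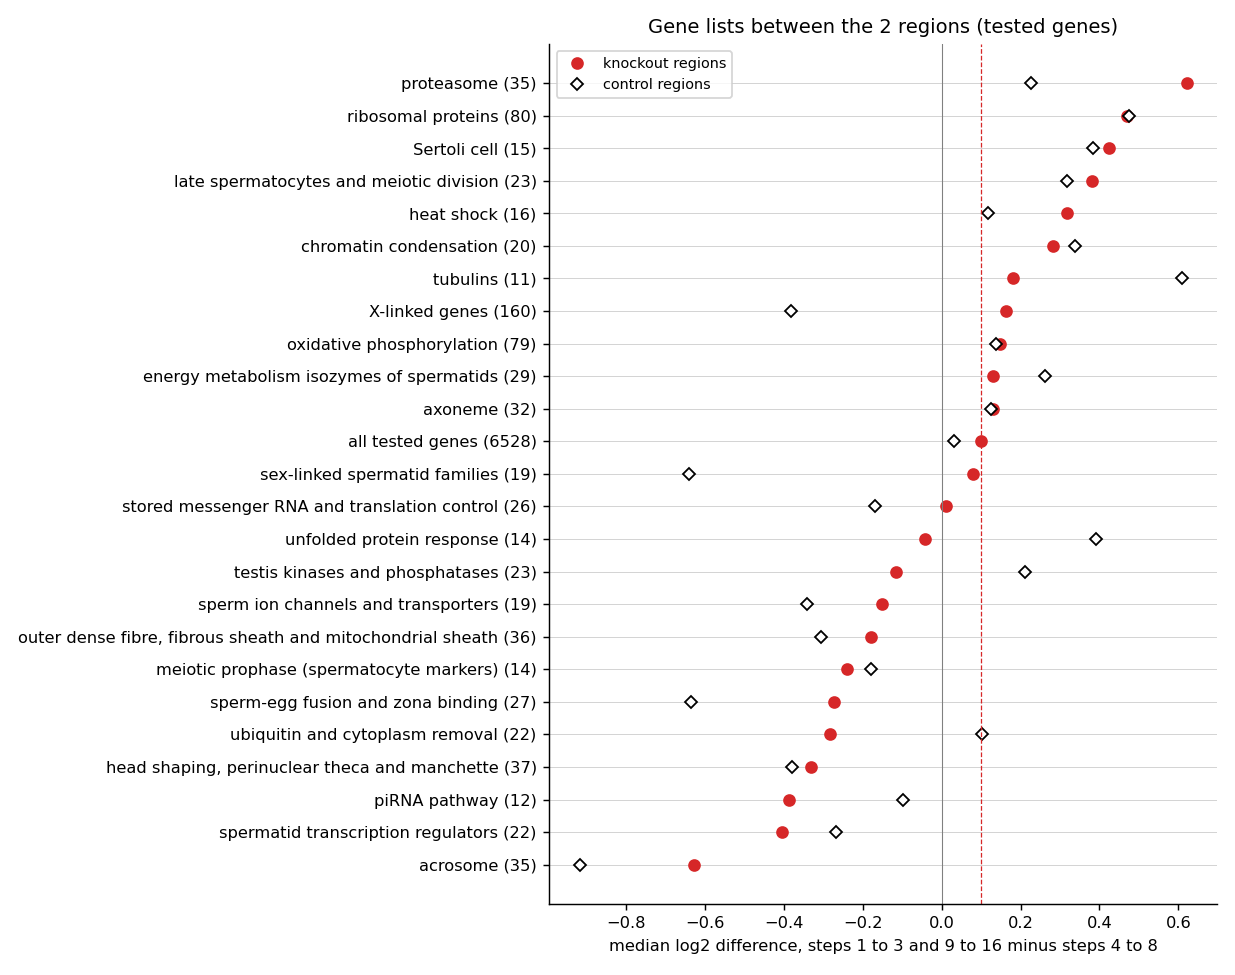
Median log2 difference (mixed region minus steps 4 to 8) of each gene list with at least 10 tested members, whose number stands in brackets, in knockouts (filled circles) and controls (open diamonds). The dashed line marks the median of all tested genes in knockouts, 0.099. Proteasome genes are at 0.62 and acrosome genes at -0.63 in knockouts, and X-linked genes are at 0.16 in knockouts and -0.38 in controls.

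The same region difference in the 4 control libraries gives the reference for what stands beside the missing gene. Over the 6528 genes the knockout and control differences had a Pearson correlation of 0.59 and a Spearman correlation of 0.58 across genes, which are not independent and which were measured in different libraries. Of all tested genes, 1289 (19.7%) stood apart as higher in the control mixed region and 1459 (22.3%) as lower. Of the genes apart as lower in knockouts, 743 (53.4%) were apart as lower in controls too and 78 were apart as higher, and the 743 were 50.9% of those apart as lower in controls. Of the genes apart as higher, 568 (33.5%) were apart as higher in controls and 95 as lower, and the 568 were 44.1% of those apart as higher in controls. The control difference had 0 adjusted calls (0%) in the same limma fit and, at an unadjusted p under 0.05, 294 genes (4.50%) higher in the mixed region and 421 (6.45%) lower.

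The difference between the 2 region differences was tested in the same limma fit. No gene passed (0% of 6528, lowest adjusted p = 0.742), and 191 genes (2.93%) had an unadjusted p under 0.05. Rabggtb had a difference of 2.71 ± 0.47 on the log2 scale (limma adjusted p = 0.742), with values in control captured libraries of 0.0600 to 0.587 RPKM. Hist1h4c had one of 3.05 ± 0.71, from control values of 3.09 and 1.35 RPKM in steps 4 to 8 and 0.216 and 0.568 RPKM in the mixed region, the reverse of the knockouts. Fahd1 had one of -3.98 ± 1.00. For Ccin, Klf17 and Hsfy2 the control difference was -1.46, -1.23 and -3.22, on the same side as in knockouts, and for Prm1 it was 1.97.

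X-linked genes were the list whose medians differed in sign between the genotypes with the most members. Of 160 tested X-linked genes, 40 (25.0%) stood apart as higher in the knockout mixed region and 24 (15%) as lower. The knockout shares of all tested genes were 26.0% and 21.3%. The X-linked median in knockouts was 0.16, beside 0.099 for all tested genes, and 0.07 to 0.28 under other scalings. In controls 20 of the 160 stood apart as higher and 64 as lower, with a median of -0.38, beside 19.7% and 22.3% of all tested genes and their control median of 0.03. For spermatid families on the sex chromosomes, the median was 0.08 in knockouts over 19 tested members and -0.64 in controls, and the knockout value turned to -0.05 under other scaling and -0.07 without knockout library 1 of steps 4 to 8. 1700013H16Rik, an X-linked gene also called Slx2 in RefSeq, stood at 0.139 and 1.79 RPKM against 4.87 and 4.08 RPKM in knockouts and at 6 and 11.7 RPKM against 0.305 and 3.70 RPKM in controls. Whether the list medians differ between the genotypes was not tested.

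**Figure D4:**
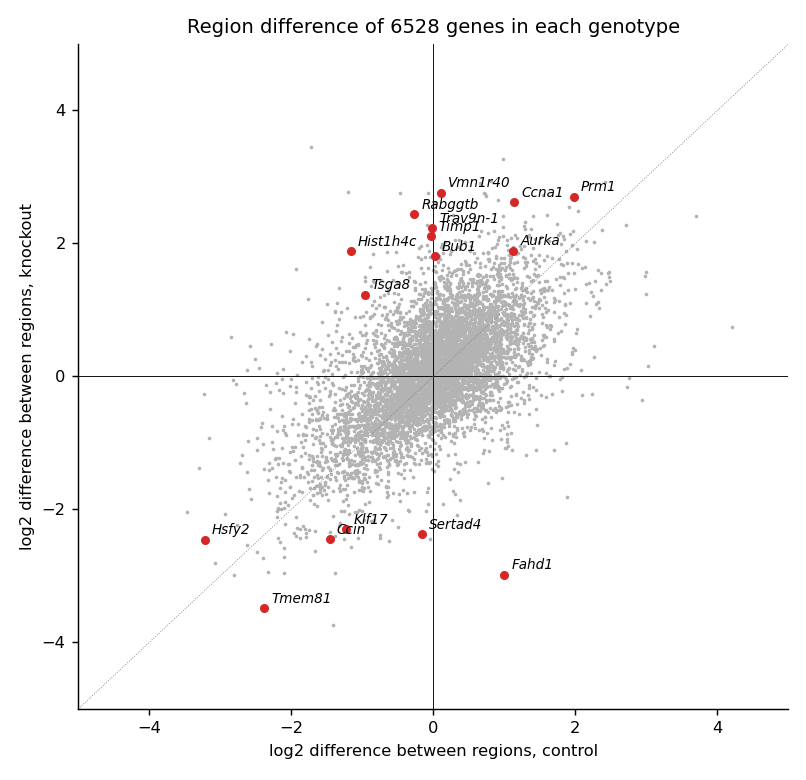
Log2 difference between the regions (mixed region minus steps 4 to 8) of each of 6528 genes in controls (horizontal) and knockouts (vertical), both axes in log2 units of RPKM + 1. The dotted line marks equal differences, and 16 genes are named. Hsfy2, Tmem81 and Prm1 lie toward the dotted line, while Timp1, Trav9n-1 and Rabggtb lie near 0 in controls and above 2 in knockouts.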

How the data were processed

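RNA sequencing values were used from 8 libraries of captured spermatid tissue, 2 in each of 4 groups. Whole testis libraries, 3 per genotype, served only for the section on flagged results and beside the spermatid label. Captured RNA went through SMART-seq2, per the labels' protocols, a method that copies polyadenylated RNA and does not mark its strand, so overlapping antisense genes cannot be told apart. The tools were HISAT2 2.1.0, Trim Galore 0.4.0 and FastQC on mm10, per the submitters' processing notes. What counted the reads is not given in the sources used here. In their table the authors deposited log2 RPKM values per gene, with the whole gene span as length, introns included, and 0-read genes entered as 0.9 read, which were set to 0 here. Whole reads could be recovered within 0.05 for at least 99.94% of values in each captured library, and RPKM of 1 stands for fewer reads in shorter genes. The design had been written for RPKM, so log2 values were raised back.

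The test was limma 3.58.1 (R 4.3.3, intensity trend, two-sided) on log2(RPKM + 1) with 4 group means, which understates changes of low genes. The SE and p of each gene pool the spread within all 4 groups, so control replicates enter those of the knockout difference. A call needed an adjusted p (Benjamini-Hochberg) under 0.05. Groups stand apart when both values of one exceed both of the other. Named genes were Tsga8, 21 genes fixed by name, the 8 with the smallest p per direction (no direction having 5 calls, predicted symbols left out), and up to 3 members per list and direction, narrowed after the values were seen to those with an unadjusted p under 0.05 or the one with the smallest p. Sox9, Cst9, Cst12, Defb19, Rhox5, Rhox8, Insl3, Fcer1g, Acta2, Myh11, Dmrtb1, Stra8 and the markers at 0 were named after their values were seen. The members and the 31 lists were chosen with earlier results of these data known. Chi-square per gene between replicate reads was 383 in knockout steps 4 to 8 and 409 in the knockout mixed region. Neither knockout pair was thus 1 library deposited more than once, and control pairs were not checked in this way. Alternatives were other scalings, pseudocounts, filters, the knockout libraries alone, a replicate block, left-out libraries and limma voom on recovered reads.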

Additional observations from a re-analysis of the deposited data

Results flagged for a closer look

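Timp1 is flagged because it also stood above controls in whole testis, which the region comparison did not use. It was at 0.238, 0.0223 and 0.0858 RPKM in the 3 control whole testes and at 1.17, 3.23 and 3.82 RPKM in the 3 knockout whole testes, 0.115 ± 0.111 against 2.74 ± 1.39 RPKM (SD, n = 3 each), a 23.8-fold higher mean. Csrnp1 is flagged in the same way, at 7.82 ± 0.799 RPKM in control and 10.2 ± 0.910 RPKM in knockout whole testis (SD, n = 3 each), a 1.31-fold higher mean, while it was lower in the knockout mixed region than in steps 4 to 8. Of the 16 genes with the smallest p, these 2 had a knockout whole testis mean of at least 1 RPKM and all 3 knockout values above all 3 control values. Rabggtb, with the smallest p of the 16, overlapped between genotypes in whole testis. It was at 1.61, 1.25 and 1.68 RPKM in controls and at 1.79, 1.49 and 1.58 RPKM in knockouts. No test of the whole testis values is given, and groups of 2 captured libraries are too small for a check of single libraries.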

How the results depend on the processing

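The count of 0 calls between the knockout regions held in every alternative run except a pseudocount of 4, which called 4 genes higher in the mixed region (Gm6369, Rabggtb, Timp1 and Vmn1r40; lowest limma adjusted p = 0.0313) and 0 lower. The genotype difference of the regions had 0 calls throughout. Leaving out single libraries gave 3.02% to 10.7% of genes higher and 2.73% to 6.74% lower at an unadjusted p under 0.05. Without a filter these shares were 4.28% and 1.86% of 23199 genes, and limma voom on 17547 genes gave 3.38% lower. The cause was not tested, though the wider filters add low genes. Limma voom on the same 6528 genes, chosen after seeing the data, called 0.

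Replicate numbers may mark a shared animal, which the labels do not say. Same-numbered knockout libraries deviated together with a correlation of 0.20 across genes, and control ones with 0.004. With the replicate number as a block, 0 genes were called in either direction or for the genotype difference, 911 had an unadjusted p under 0.05, and the shares at that p were 8.04% higher and 5.91% lower.

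Of 2230 alternative values of 114 named genes, 17 had the opposite sign, none of them past the threshold. Common-sum scaling put Akap4 at -0.05 and Clu at -0.04, and quantile normalization put Prm2 at -0.00 and Tssk6 at 0.00. Leaving out single libraries gave Fdx1 -0.17 to 1.07, Actg2 -0.61 to 0.00, C1qb -1.13 to 0.38, Tnp2 -0.63 to 2.73, Hils1 -0.85 to 0.08, Akap4 -0.37 to 0.53, Crem -0.16 to 0.01, Tssk6 -0.22 to 0.17, Cypt1 -0.56 to 0.14 and Clu -0.27 to 0.44. The median of all tested genes was 0.01 to 0.16 under other scalings. With 2 libraries per group, differences within the replicate spread were not detectable.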
